A study of Mus musculus with 2 samples.

Results

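Spon1, Glb1l2, Gpld1, Barx2, Adamts18, Lor and Cldn22 are 7 of the 32285 mouse genes counted in single cells of the embryonic cochlea. They were picked from measured values, for a high rate of molecules in the epithelium of a Ptch1 mutant over the wild type, so their ratios describe how they were chosen and carry no test. Each of the 7 symbols matched 1 gene in both libraries. The study compared 1 library of wild-type cochleae with 1 library of Emx2Cre;Ptch1f/f cochleae, both at embryonic day E16.5 and both of mixed 129/SvEv and C57BL/6N background. Each library pooled 8 cochleae, and no agent was given to either group. In the mutant, Cre recombinase is made from Emx2 and removes the floxed Ptch1 in cells that express Emx2 or descend from such cells, while other cells can keep it. With 1 library per genotype no test between genotypes is possible, and genotype cannot be told apart from library. Intervals below are exact 95% intervals that cover counting error only.

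Ptch1 encodes the receptor that holds Hedgehog signalling off until a ligand binds it. Once the pathway is on, Gli transcription factors switch on Gli1, Hhip and Ptch1 itself, and Gli1 and Hhip RNA therefore serve as readouts of pathway activity. The cochlear duct is a closed epithelial tube. Its floor holds Kölliker's organ, a transient ridge on the inner side, and the prosensory domain that gives rise to hair cells and supporting cells. The roof forms Reissner's membrane, which bears Otx2, and the outer wall forms the outer sulcus and the marginal cells of the stria vascularis. Barx2 encodes a homeobox transcription factor. Spon1 encodes F-spondin, a secreted matrix protein, Adamts18 a secreted metalloprotease, and Gpld1 a phospholipase that cleaves glycosylphosphatidylinositol anchors. Glb1l2 encodes a relative of beta-galactosidase, Cldn22 a claudin of the tight-junction family, and Lor the protein loricrin, known from the cornified envelope of the epidermis.

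The wild-type library held 6500 barcodes and 61130806 unique molecular identifiers (UMIs, counted molecules), with a median of 7333 per barcode and a lowest value of 3352. The mutant library held 12326 barcodes and 100135532 UMIs, with a median of 6524.5 and a lowest value of 500. The filters left 6108 barcodes of the wild type and 8670 of the mutant, of which 16 sequences occurred in both libraries and 0 of those lay in the epithelium. Clusters named from markers put 1374 wild-type barcodes with 15370742 UMIs and 2029 mutant barcodes with 20320805 UMIs in the epithelium. The 2 epithelia stand apart in depth: the median was 8155 UMIs for wild-type barcodes against 3944 for mutant ones, and 47.2% of mutant epithelial barcodes lay below the lowest wild-type barcode. They also stand apart in RNA of other lineages, since 63.5% of the wild-type barcodes but 15.7% of the mutant ones were mixed, meaning that 29 genes of 4 other lineages gave over 5 UMIs in 10000. Most wild-type and most mutant epithelial barcodes fell in different clusters. The share that depth and mixed RNA have in the results was not tested, but values at matched depth and without mixed barcodes are given. Levels are CPM, the UMIs of a gene divided by all UMIs of the class and scaled to 1000000. Ptch1 itself stood at 30.7 CPM in wild-type and 185 CPM in mutant epithelium, and because 3′ tags need not lie in the deleted part, this does not check the deletion. Emx2, whose promoter drives Cre, stood at 18.9 and 32.5 CPM.

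Lor lay in both the roof and a prosensory sub-cluster of the mutant epithelium, Cldn22 mainly in the roof and Gpld1 mainly in the prosensory sub-cluster. Sequences before the gene starts are shown for these 3 members, in which a reader may want to look for shared control letters. They run from 250 bases before to 50 bases after the start in RefSeq on GRCm38.p6, at chr3:92083093-92083392 on the minus strand, chr8:47824232-47824531 on the plus strand and chr13:24942902-24943201 on the plus strand. Capitals mark matches to 4 motifs searched on both strands, GACCACCCA for GLI, TAATCC for OTX, TATAAA for the TATA box and TGANTCA for AP-1.
Lor: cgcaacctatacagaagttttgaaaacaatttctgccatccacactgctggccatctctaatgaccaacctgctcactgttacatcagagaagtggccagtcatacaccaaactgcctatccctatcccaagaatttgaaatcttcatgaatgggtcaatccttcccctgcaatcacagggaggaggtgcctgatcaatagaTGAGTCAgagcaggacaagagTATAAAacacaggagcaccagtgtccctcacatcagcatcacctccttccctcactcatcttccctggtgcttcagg
Cldn22: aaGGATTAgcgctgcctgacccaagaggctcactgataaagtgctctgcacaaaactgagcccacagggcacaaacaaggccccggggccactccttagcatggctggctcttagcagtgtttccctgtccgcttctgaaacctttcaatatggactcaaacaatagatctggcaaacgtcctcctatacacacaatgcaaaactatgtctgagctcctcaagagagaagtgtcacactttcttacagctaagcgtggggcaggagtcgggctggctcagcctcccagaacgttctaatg
Gpld1: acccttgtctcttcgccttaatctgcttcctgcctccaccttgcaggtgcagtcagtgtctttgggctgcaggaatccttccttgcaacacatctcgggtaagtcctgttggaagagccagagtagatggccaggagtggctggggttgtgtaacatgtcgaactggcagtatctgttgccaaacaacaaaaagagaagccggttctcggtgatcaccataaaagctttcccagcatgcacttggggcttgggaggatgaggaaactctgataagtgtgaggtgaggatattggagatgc
The Lor window held a TATA box beginning 27 bases before the start and an AP-1 match beginning 48 bases before it. The Cldn22 window held an OTX match on the minus strand, 248 bases before the start. None of the 4 motifs was found in the windows of Gpld1, Adamts18 or Hhip. Among 32851 promoters of the same length, 13.6% held the TATA letters, 7.81% the AP-1 letters, 7.06% the OTX letters and 0.253% the GLI letters. A match describes letters, not a bound site.

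The genes lie apart in the genome except for a pair on chromosome 9 and a pair on chromosome 8, both far apart (GRCm38, GENCODE vM21). Barx2 spans chr9:31846044-31913462 and Glb1l2 chr9:26763044-26806468, both on the minus strand. Adamts18 spans chr8:113697126-113848738 on the minus strand and Cldn22, a gene of 1 exon, chr8:47824482-47825476 on the plus strand. Spon1 lies at chr7:113765998-114043370 and Gpld1 at chr13:24943152-24992501, both on the plus strand, and Lor at chr3:92080271-92083142 on the minus strand. Some genes overlap a neighbour on the other strand. The sources used here do not state how counting treated strand, and whether reads of such pairs were kept apart was not tested. For Cldn22 that neighbour is Wwc2, which stood at 78.5 CPM in wild-type and 78.0 CPM in mutant epithelium. For Gpld1 it is Mrs2, at 18.3 and 22.2 CPM, and for Glb1l2 it is B3gat1, at 0.976 and 1.28 CPM. None of the 3 neighbours differed by 2-fold. Glb1l3 lies 11485 bases from Glb1l2 on the same strand and had 0 wild-type and 68 mutant epithelial UMIs, at least 17.1-fold higher in CPM when the wild type is set to a floor of 3 UMIs over the library. Cldn24, 1677 bases from Cldn22 on the same strand, had 2 and 26 UMIs.

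In the epithelium, Spon1 stood at 2.60 CPM (40 UMIs) in wild-type and 72.8 CPM (1479 UMIs) in mutant barcodes. Barx2 stood at 0.846 CPM (13 UMIs) and 25.3 CPM (515 UMIs). Adamts18 stood at 3.90 CPM (60 UMIs) and 59.5 CPM (1210 UMIs). These 3 genes were low in wild-type epithelium and were counted in 133, 125 and 383 of the 2029 mutant barcodes, against 35, 9 and 43 of the 1374 wild-type ones. Gpld1 stood at 2.21 CPM (34 UMIs) and 48.2 CPM (979 UMIs). Glb1l2 stood at 4.03 CPM (62 UMIs) and 76.7 CPM (1559 UMIs). Cldn22 stood at 2.54 CPM (39 UMIs) and 23.7 CPM (481 UMIs). Lor differed from the rest in being readily counted in the wild type too, at 17.6 CPM (271 UMIs) against 164 CPM (3329 UMIs) in the mutant. No wild-type interval reached a mutant one. On a log2 scale with 1 CPM added to each level, the mutant lay above the wild type by 4.36 for Spon1, 3.95 for Glb1l2, 3.94 for Gpld1, 3.84 for Barx2, 3.63 for Adamts18, 3.15 for Lor and 2.80 for Cldn22.

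Those ratios placed the members at ranks 1 (Spon1), 2 (Glb1l2), 3 (Gpld1), 4 (Barx2), 6 (Adamts18), 8 (Lor) and 11 (Cldn22) among 6593 genes that passed the filters of the ranking. These include at least 100 UMIs over both libraries and at least 20 CPM in 1 of them. They also include an epithelial level of at least 0.5 of that outside the epithelium. The 4 other genes of the first 11 were Hist1h2ap, Vmo1, Otx2 and Gm47283, so the 7 are not the whole top of the ranking. Just inside the end of the list Cldn22 had a log2 ratio of 2.80, and just outside it Pianp had 2.76. All 7 members were at least 2-fold higher in mutant epithelium, where 2.15% of 16170 genes with at least 10 UMIs were, and at least 4-fold higher, where 0.309% were. The members were chosen by this contrast, so nothing is read from those counts. When mutant barcodes below 3352 UMIs were left out, all 7 again were at least 4-fold higher, beside 0.304% of all genes. Without mixed barcodes the log2 ratios ran from 2.84 (Cldn22) to 4.48 (Spon1).

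**Figure D1:**
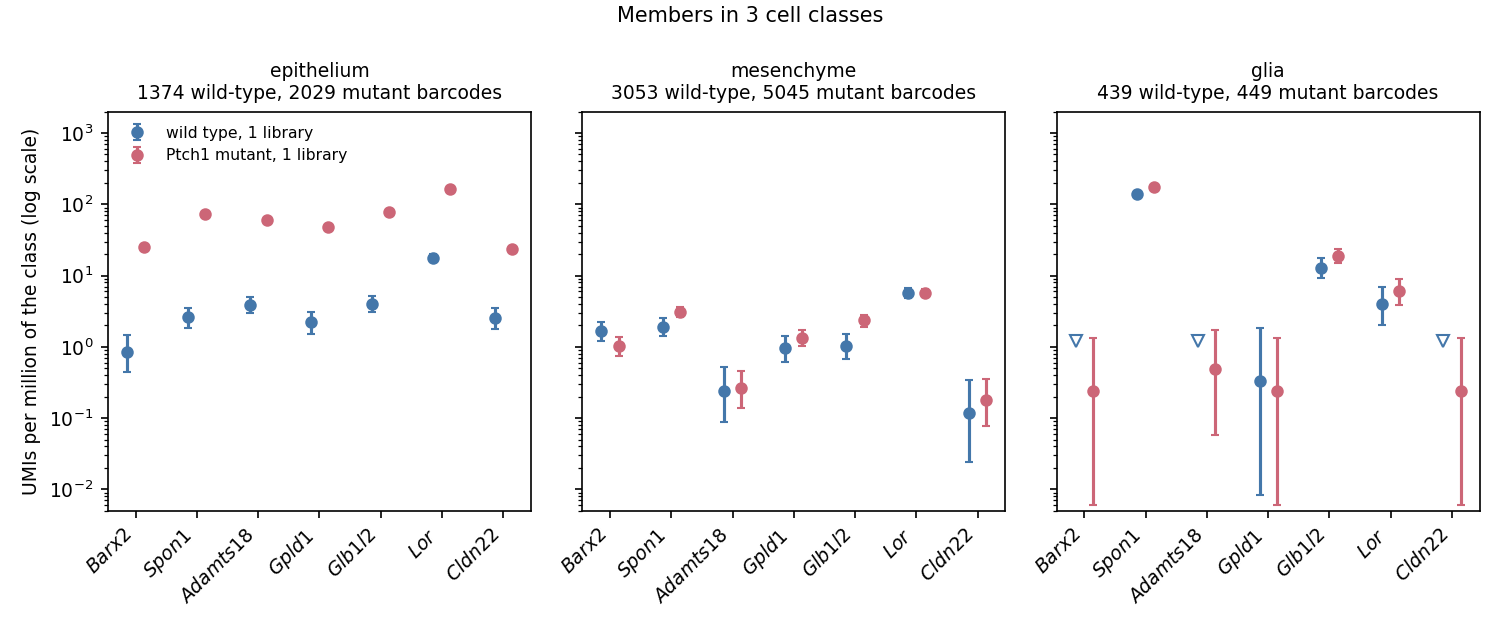
Level of the 7 genes (horizontal axis) in CPM of the class (vertical axis, log scale) in epithelium, mesenchyme and glia, 1 point per library with its exact 95% Poisson interval; open triangles are upper bounds where 0 UMIs were counted. The mutant points lie above the wild-type points in the epithelium, and the points of both libraries lie close together in mesenchyme and glia, where Spon1 was high in both.

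Mesenchyme and glia held most members at low levels. The choice of genes did not use their ratios between genotypes. Its filters did limit the level outside the epithelium relative to that in it, so low levels there are no independent finding. In the mesenchyme, 0 of 7 members reached 2-fold above the wild type with 1 CPM added, beside 0.409% of all genes, so the count says little, and the median log2 ratio was 0.07 over the members and 0.03 over all genes. Adamts18 gave 0.238 CPM in wild-type mesenchyme against 0.265 CPM in mutant mesenchyme. Lor gave 5.75 against 5.74 CPM. The largest mesenchymal log2 ratio was 0.72, for Glb1l2, whose levels of 1.03 CPM (0.673 to 1.51) and 2.34 CPM (1.92 to 2.83) had intervals apart and differed by over 2-fold when nothing was added. In glia, 3 members had at least 10 UMIs and 0 of them were at least 2-fold higher with 1 CPM added, beside 2.16% of all genes. Spon1 was at a high level in glia of both genotypes, 138 CPM (125 to 152) in wild-type barcodes against 175 CPM (162 to 188) in mutant ones, above its level in mutant epithelium as a whole. Glb1l2 in glia stood at 12.9 and 19 CPM. In the 63 wild-type and 22 mutant barcodes that no marker set named, Lor stood at 43.4 and 3.86 CPM (64 and 1 UMIs). These barcodes came from different clusters, 1 with 60 wild-type and 0 mutant barcodes and another with 3 and 22. The 2 values therefore do not compare the same kind of cell.

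To compare shares of barcodes at 1 depth, every barcode was thinned to 2000 UMIs, which left out 659 shallower mutant epithelial barcodes and 0 wild-type ones. A UMI of at least 1 member was then found in 36.4% of 1370 mutant epithelial barcodes and 6.04% of 1374 wild-type ones. In mesenchymal barcodes, a background in which free RNA would also be counted, the share was 3.07% of 4522 mutant and 2.52% of 3053 wild-type barcodes. For Adamts18 the share was 7.96% in mutant epithelium, 0.509% in wild-type epithelium and 0.0221% in mutant mesenchyme. For Lor it was 16.9%, 3.35% and 1.33%. For Glb1l2 it was 11.8%, 0.873% and 0.420%. In wild-type epithelium Gpld1 and Barx2 were each found in 0.146% (2 barcodes) and Spon1 in 0.437% (6 barcodes), with intervals that overlapped those of mesenchyme of the same library. The summed wild-type level of Gpld1 was nonetheless higher in epithelium, 2.21 CPM (1.53 to 3.09) against 0.951 CPM (0.609 to 1.42) in mesenchyme. Cldn22 was found in 2.41% of mutant and 0.655% of wild-type epithelial barcodes. Before thinning, Glb1l2 was found in 409 mutant and 52 wild-type epithelial barcodes, Lor in 540 and 159, and Cldn22 in 92 and 30.

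A few very deep barcodes carried much of the RNA of 3 members. Barcodes above 50000 UMIs, a limit set after the data were seen, numbered 19 in wild-type and 71 in mutant epithelium and held 9.67% and 28.9% of its UMIs. They held 72.5% of the mutant Spon1 UMIs, 70.3% of Cldn22 and 67.8% of Barx2, but 22.6% of Glb1l2 and 28.9% of Gpld1. For Spon1, 9 barcodes held 50% of all mutant UMIs, and 1 barcode alone held 164. Without the deep barcodes the log2 ratio of Cldn22 was 1.52 (2.81 and 9.89 CPM), that of Spon1 3.05 and that of Barx2 3.05, so that 6 of the 7 members were still at least 4-fold higher. Gpld1 and Glb1l2 stood at 3.99 each without them, Adamts18 at 3.43 and Lor at 3.23. No share over all genes is given for this subset, and the members were chosen by this contrast, so nothing is read from the 4-fold count. Doublets could not be called by the automatic threshold, and their part in the deep barcodes was not tested.

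**Figure D2:**
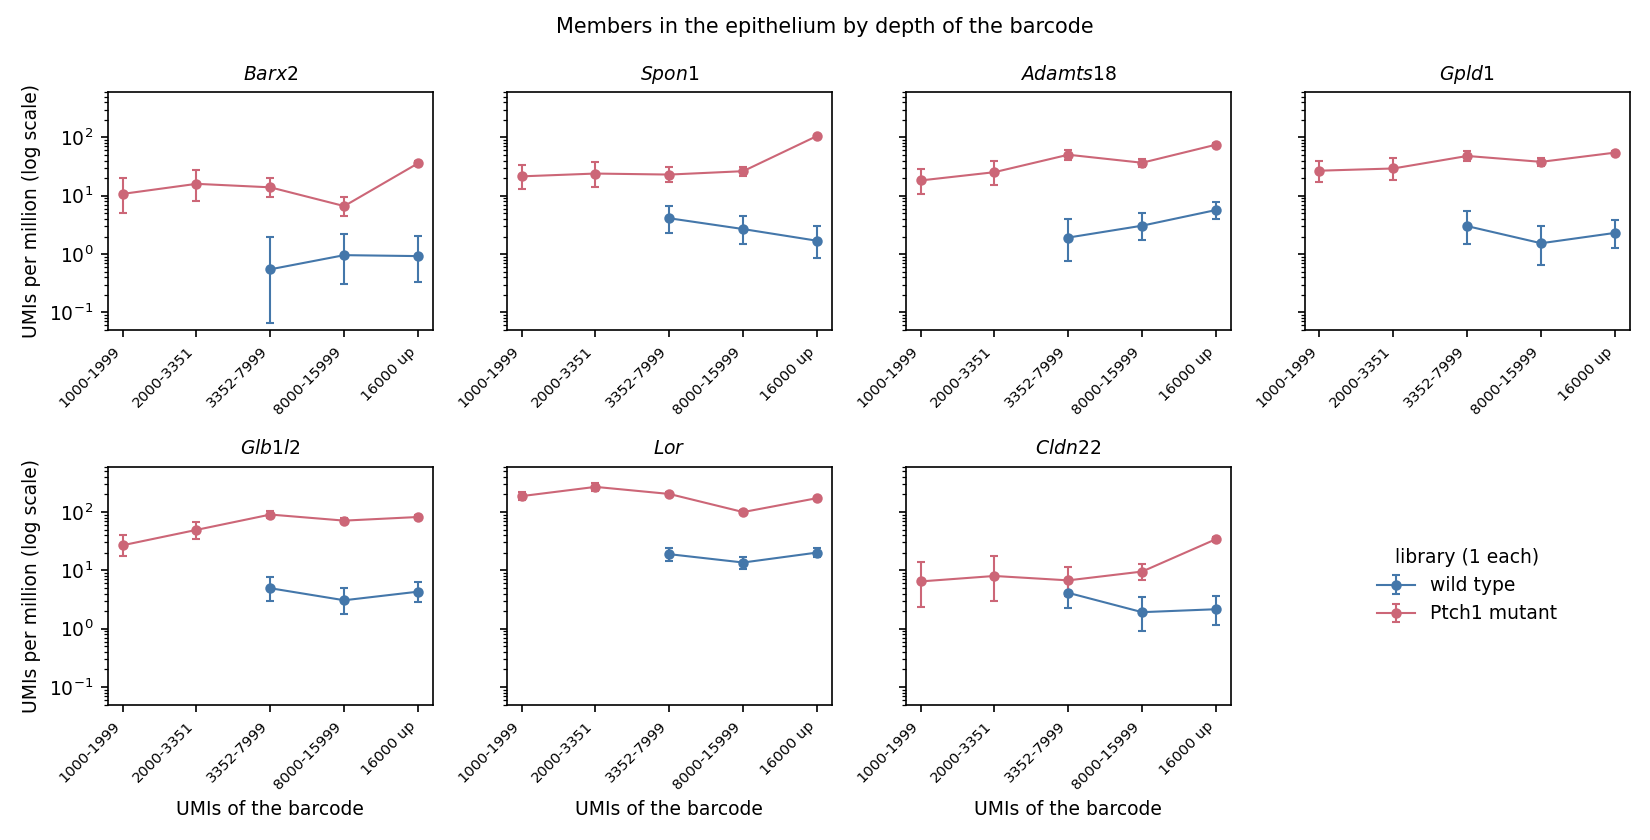
Level of each gene in the epithelium in CPM (vertical axis, log scale) in bins of barcode depth (horizontal axis, UMIs of the barcode), 1 line per library with exact 95% Poisson intervals. The mutant lies above the wild type in each shared bin, and for Spon1 the mutant level was 23.1 CPM from 3352 to under 8000 UMIs and 106 CPM from 16000 UMIs up.

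Levels differed between depth bins, which also differ in subtype, so depth and subtype cannot be told apart in them. In wild-type barcodes Spon1 stood at 4.11 CPM from 3352 to under 8000 UMIs, 2.68 CPM from there to under 16000 and 1.69 CPM from 16000 up. In mutant barcodes it stood at 23.1, 26.4 and 106 CPM in the same bins. Cldn22 followed the same course in the mutant, at 6.72, 9.52 and 34.2 CPM, against 4.11, 1.92 and 2.15 CPM in the wild type, and its intervals for the shallowest shared bin overlapped. Lor was high in shallow mutant barcodes too, with 187 CPM from 1000 to under 2000 UMIs and 269 CPM from 2000 to under 3352, against 173 CPM from 16000 up. Barcodes below the wild-type minimum held 11.3% of mutant Lor UMIs, and between 2.49% (Cldn22) and 4.80% (Gpld1) of those of the other members, beside 8.27% of all epithelial UMIs.

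Within the mutant epithelium the genes lay in different subtypes. Sub-clusters were made without the members, the Hedgehog genes or any marker, and were then named from marker sets. Roof or Reissner's membrane, marked by Otx2, Vmo1 and Oc90, held 262 mutant barcodes and 15.5% of the mutant epithelial UMIs. It held 83.0% of the Cldn22 UMIs, 77.5% of Barx2 and 76.5% of Spon1. The level in the roof was 360 CPM for Spon1, 127 CPM for Barx2 and 127 CPM for Cldn22. Glb1l2 was low there, with 4.30% of its UMIs and 21.3 CPM, and Gpld1 had 12.9% and 40.0 CPM. The roof came as a sub-cluster of 70 deep barcodes and another of 192 shallow ones, whose median over both libraries was 1818 UMIs. In the deep one Spon1 stood at 401 CPM, Cldn22 at 142, Barx2 at 139 and Adamts18 at 137, and in the shallow one Spon1 stood at 87.3 CPM and Lor at 514. In both sub-clusters 4 markers of the roof set, not all of them, reached 10 CPM over both libraries. Enpep and Rspo3, also of that set, were among the leading genes of other sub-clusters.

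A prosensory or supporting-cell sub-cluster of 195 mutant barcodes, led by Vstm2b, Fst, Fbn1, Lgr5, Fgf20 and Hey2 among others, held 18.4% of the mutant epithelial UMIs. It held 65.2% of the Glb1l2 UMIs and 55.1% of Gpld1, at 272 CPM (255 to 289) and 144 CPM (132 to 157). The genes of the roof were scarce in it, with Spon1 at 4.28 CPM and Cldn22 at 1.60 CPM. Its name is not firm: Fst is a marker of the lateral wall set, and under a finer clustering or barcode-by-barcode naming most of it was called outer sulcus or lateral epithelium, so that 5 of the 7 members kept their highest subtype. Gpld1 and Glb1l2 were also high in a Kölliker's organ sub-cluster of 78 barcodes marked by Tectb, at 94.2 and 209 CPM. They were again high in 2 shallow unnamed sub-clusters of 194 and 92 barcodes, at 114 and 130 CPM and at 141 and 158 CPM.

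Lor and Adamts18 were spread over both places. Of the mutant Lor UMIs, 42.2% lay in the roof (446 CPM) and 32.4% in the prosensory sub-cluster (288 CPM). Lor was also among the leading genes of the shallow unnamed sub-cluster of 194 mutant barcodes. After thinning, Lor was found there in 34 of 79 barcodes, against 74 of 195 prosensory and 48 of 148 roof barcodes. Of the Adamts18 UMIs, 31.7% lay in the roof (122 CPM), 20.2% in the prosensory sub-cluster (65.5 CPM), 18.7% in Kölliker's organ, 12.1% in dividing cells and 8.60% in medial cells. Adamts18 also reached 28.9 CPM in the medial sub-cluster of 214 barcodes, where the other 6 stood between 0.278 and 5.01 CPM. Without the deep barcodes all 7 members kept their highest subtype, and the roof then held 25.6% of the Lor and 20.0% of the Adamts18 UMIs. Markers of other lineages were counted in both the roof and the prosensory sub-cluster. Over 8 marker sets the summed level ran from 2.92 CPM (macrophage, 4 of 7 markers at 0) to 394 CPM (mesenchyme, none of 10 at 0) in the deep roof sub-cluster. In the prosensory one it ran from 4.54 CPM (macrophage, 2 of 7 at 0) to 1005 CPM (neuron, 1 of 8 markers above 10 CPM and none at 0). That neuron sum lay almost wholly in 1 marker, so it does not measure neuronal RNA. Isl1, a marker of the neuron set left out of the mixed-barcode genes, stood at 193 CPM in wild-type and 300 CPM in mutant epithelium. Over the mutant sub-clusters its level ran with that of Glb1l2 (Pearson r of 0.98). The part of these markers in the levels was not tested.

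**Figure D3:**
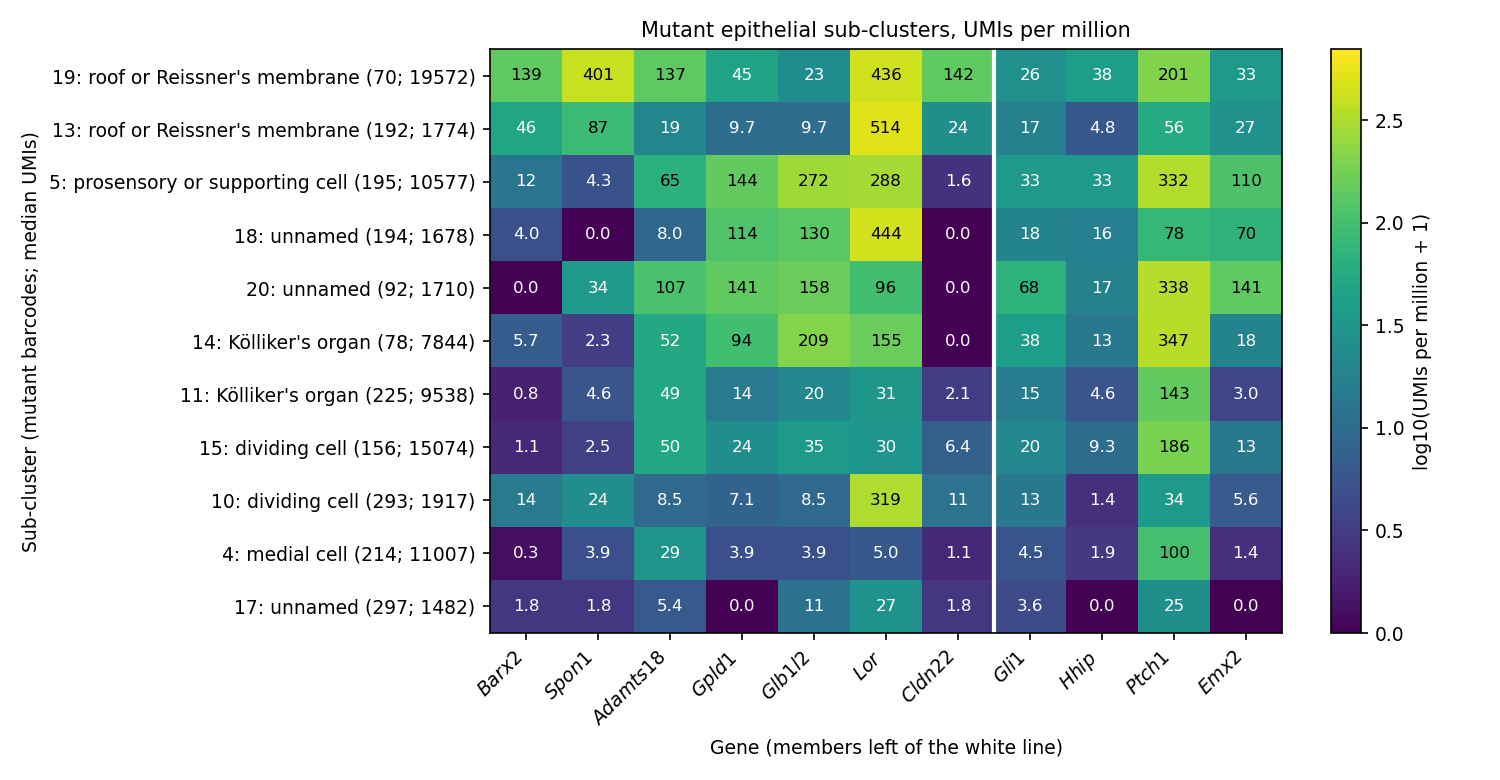
Level of the 7 genes and of Gli1, Hhip, Ptch1 and Emx2 (columns) in the 11 mutant epithelial sub-clusters with at least 50 barcodes (rows, with barcode number and median UMIs), coloured by log10(CPM + 1) and printed as CPM. Spon1, Barx2 and Cldn22 are highest in the deep roof sub-cluster and Glb1l2 and Gpld1 in the prosensory one.

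A further place for the roof genes was a small unnamed sub-cluster led by Ecel1, Pcdh20 and Ccdc3, with 87 wild-type and 10 mutant barcodes. In its mutant barcodes Spon1 stood at 691 CPM, Adamts18 at 184, Barx2 at 119 and Cldn22 at 85.4, against 3.82, 10.2, 1.27 and 17.8 CPM in its wild-type barcodes. It held 18.1% of the mutant Spon1 UMIs in 10 barcodes, whose median was 32056.5 UMIs. The sub-clusters named roof held 12 wild-type barcodes, so wild-type levels there are poorly known: Cldn22 had 84.2 CPM, Barx2 23.0 CPM and Spon1 0 UMIs. These sub-clusters need not hold all wild-type roof cells. In the clustering of all cells, the roof set scored highest in an epithelial cluster of 116 wild-type and 86 mutant barcodes and in another of 4 and 462. In the 9 wild-type barcodes of the deep roof sub-cluster the interval for Cldn22, 40.1 to 154 CPM from 10 UMIs, took in the mutant value of 142 CPM.

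The sub-clusters with at least 20 barcodes of each library numbered 5, and with 21 to 105 wild-type barcodes their wild-type levels are imprecise. In the prosensory one (25 wild-type and 195 mutant barcodes), Glb1l2 stood at 1.87 and 272 CPM and Gpld1 at 7.49 and 144 CPM. Adamts18 stood there at 24.3 CPM (13 to 41.6) and 65.5 CPM (57.5 to 74.2), and Lor at 189 CPM (154 to 230) and 288 CPM (271 to 306). Lor was therefore high in this sub-cluster in the wild type as well, and 37.3% of all wild-type epithelial Lor UMIs lay in these 25 barcodes. In the Tectb-marked Kölliker's organ sub-cluster (44 and 78 barcodes), Glb1l2 stood at 7.42 and 209 CPM, Gpld1 at 1.85 and 94.2 CPM. Lor stood at 27.8 CPM there in the wild type against 155 CPM in the mutant. Adamts18 had 0 wild-type and 45 mutant UMIs there. In the medial sub-cluster (105 and 214 barcodes), Adamts18 stood at 8.42 CPM (4.35 to 14.7) and 28.9 CPM (23.6 to 35.1).

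In the other Kölliker's organ sub-cluster (21 and 225 barcodes), Adamts18 stood at 9.97 CPM (1.21 to 36) and 48.6 CPM (41.8 to 56.3), and Cldn22 was higher in the wild type, at 24.9 against 2.15 CPM, with all 5 of its wild-type UMIs in 1 barcode. In the dividing sub-cluster (28 and 156 barcodes), Adamts18 stood at 4.57 and 49.9 CPM and Glb1l2 at 18.3 CPM (7.89 to 36) and 34.6 CPM (28 to 42.2), with overlapping intervals. These cells are part of the epithelium that chose the members, so the values add no evidence.

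Barcodes with a Gli1 or Hhip UMI were compared with those without one, a comparison the choice of genes did not use. Gli1 stood at 1.82 CPM (28 UMIs) in wild-type and 20.0 CPM (406 UMIs) in mutant epithelium, and Hhip at 1.82 CPM (28 UMIs) and 14.9 CPM (302 UMIs). In the mutant, Gli1 stood at 32.9 CPM in the prosensory sub-cluster, 24.5 CPM in the roof and 37.9 CPM in the Tectb-marked Kölliker's organ sub-cluster. It was highest, at 67.6 CPM, in the shallow unnamed sub-cluster of 92 barcodes. Hhip stood at 33.1 CPM in the prosensory sub-cluster and 33.4 CPM in the roof, against 12.6 and 16.9 CPM in the other 2. At 2000 UMIs per barcode, 67 mutant epithelial barcodes had a Gli1 or Hhip UMI and 1303 had none. At least 1 member was found in 64.2% of the former and 34.9% of the latter, a log2 ratio of 0.88, and 100 repeated thinnings gave 0.62 to 1.22. The exact intervals of these shares were 51.5 to 75.5% and 32.3 to 37.6%. Before thinning, the shares were 88.8% of 331 barcodes and 36.5% of 1698, but the former were far deeper, with a median of 14386 UMIs against 2772.5. In mutant mesenchyme only 59 barcodes had a readout UMI, and 2 of them had a member, a share of 3.39% (0.413 to 11.7%) beside 3.07% (2.58 to 3.62%) without it, too few to tell whether the shares differ.

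In this 1 thinning, Glb1l2, Gpld1 and Lor had intervals apart for barcodes with and without the readout. Over the 100 thinnings the barcodes with the readout numbered 58 to 97, with a median of 76. Whether the intervals stayed apart in the other thinnings was not tested. Glb1l2 was found in 32.8% (21.8 to 45.4%) of barcodes with and 10.7% (9.04 to 12.5%) of those without it, a log2 ratio of 1.62. Gpld1 was found in 17.9% (9.61 to 29.2%) and 6.75% (5.45 to 8.25%), a log2 ratio of 1.41. The ratios of Glb1l2 and Gpld1 were above 0 in all 100 thinnings, at 0.35 to 1.88 and 0.26 to 2.01. Lor was found in 31.3% (20.6 to 43.8%) and 16.1% (14.2 to 18.2%), a log2 ratio of 0.96, but the thinnings ran from -0.42 to 1.18. Their median was 0.67, with median shares of 25.6% and 16.1%. The other 4 genes gave no steady direction in the thinnings over the whole epithelium. In this thinning 2 to 5 barcodes with the readout had each of them. Their unthinned levels were all higher in the 331 barcodes with the readout than in the 1698 without. Spon1 stood at 139 and 18.1 CPM, Barx2 at 47.4 and 7.17, Cldn22 at 43.7 and 7.17 and Adamts18 at 96.2 and 29.4. Glb1l2 stood at 110 and 49.6 CPM, Gpld1 at 72.4 and 28.2 and Lor at 217 and 120. Barcodes with the readout were far deeper, so depth and readout cannot be told apart in these levels. For Adamts18 the shares were 7.46% and 7.98%, a log2 ratio of -0.10, while the median of the thinnings was 0.77 and the unthinned value 2.26. Barx2 had 5.97% and 2.53%, Spon1 4.48% and 3.68%, and Cldn22 2.99% and 2.38%, each with thinnings on both sides of 0. The median log2 ratios of these 3 over the thinnings were 1.13, 0.81 and 0.87. Within the roof, in a separate thinning, 13 barcodes had the readout and 135 lacked it. Spon1 was found there in 8 of 13 (61.5%, 31.6 to 86.1%) and 39 of 135 (28.9%, 21.4 to 37.3%). Cldn22 was found in 5 (38.5%, 13.9 to 68.4%) and 17 (12.6%, 7.51 to 19.4%), and Adamts18 in 4 (30.8%, 9.09 to 61.4%) and 16 (11.9%, 6.93 to 18.5%). At least 1 member was found in 12 of 13 (92.3%) and 99 of 135 (73.3%). These shares were higher with the readout. The exact intervals overlapped, which does not settle whether the shares differ, and thinning was not repeated within the roof. Lor was lower there with the readout, in 2 of 13 (15.4%) against 46 of 135 (34.1%), also overlapping.

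**Figure D4:**
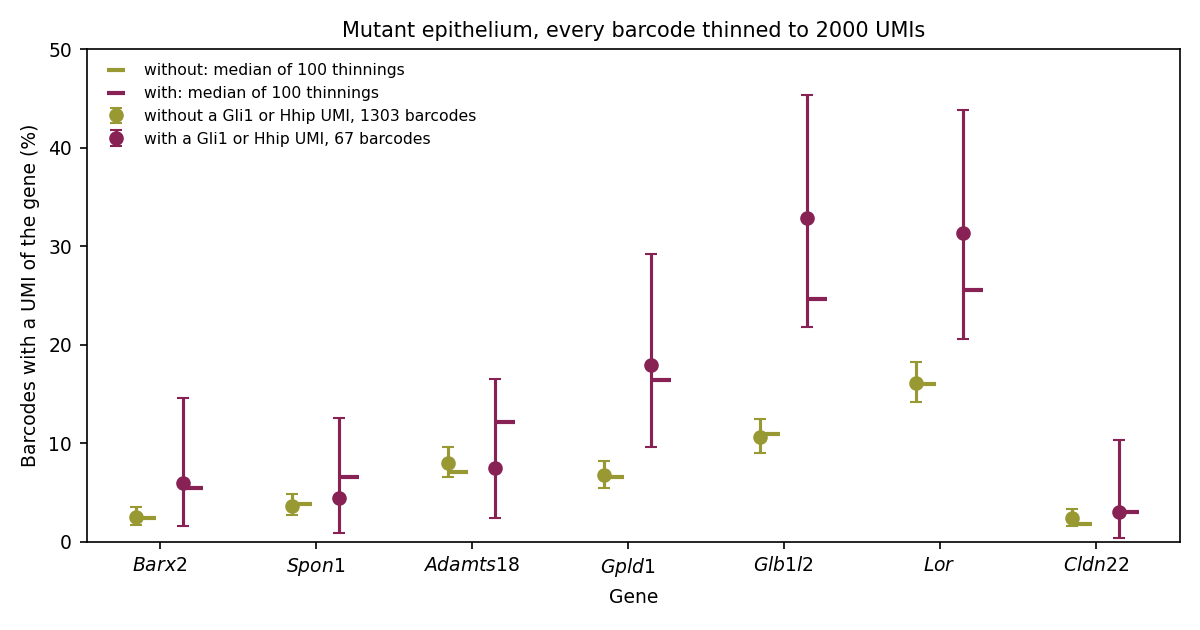
Share of mutant epithelial barcodes with a UMI of each gene (vertical axis, percent; horizontal axis, genes) among 67 barcodes with and 1303 without a Gli1 or Hhip UMI, each thinned to 2000 UMIs, with exact 95% intervals; dashes are medians of 100 thinnings. For Glb1l2 (32.8% and 10.7%), Gpld1 (17.9% and 6.75%) and Lor (31.3% and 16.1%) the intervals are apart, and for the other 4 genes they overlap.

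The difference was smaller with the subtypes weighted alike. When barcodes without the readout were weighted to the subtype make-up of those with it, the share with any member was 51.3% in place of 34.9%, beside 64.2% with the readout, and the log2 ratio was 0.32. For Glb1l2 the weighted share without the readout was 19.3%, for Lor 25.5% and for Gpld1 13.1%. Within the prosensory sub-cluster, where 105 barcodes had and 90 lacked a readout UMI, unthinned levels lay close together. Glb1l2 stood at 269 and 279 CPM, Gpld1 at 143 and 146 CPM. For Lor the values were 280 and 309 CPM, and the intervals of all 3 overlapped. Adamts18 stood there at 69.7 and 55.0 CPM, also overlapping.

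Elsewhere the 2 kinds of barcode differed. In the medial sub-cluster Adamts18 stood at 94.9 CPM (72.6 to 122) in 15 barcodes with the readout and 14.6 CPM (10.5 to 19.6) in 199 without. In the Tectb-marked Kölliker's organ sub-cluster Gpld1 stood at 132 and 58.2 CPM, while Lor gave 200 and 112 CPM. In dividing cells Adamts18 stood at 81.1 and 29.8 CPM, Gpld1 at 47.4 and 8.8 CPM. In the deep roof sub-cluster Lor went the other way, at 416 CPM (390 to 443) in 39 barcodes with and 556 CPM (484 to 636) in 31 without, while Cldn22 stood at 144 and 130 CPM. Barcodes with the readout were deeper there too, with a median of 52558 UMIs against 9230, so depth and readout cannot be told apart in these values. In the wild type only 9 epithelial barcodes had a readout UMI after thinning, and 2 of them had a member, in both cases Lor.

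**Figure D5:**
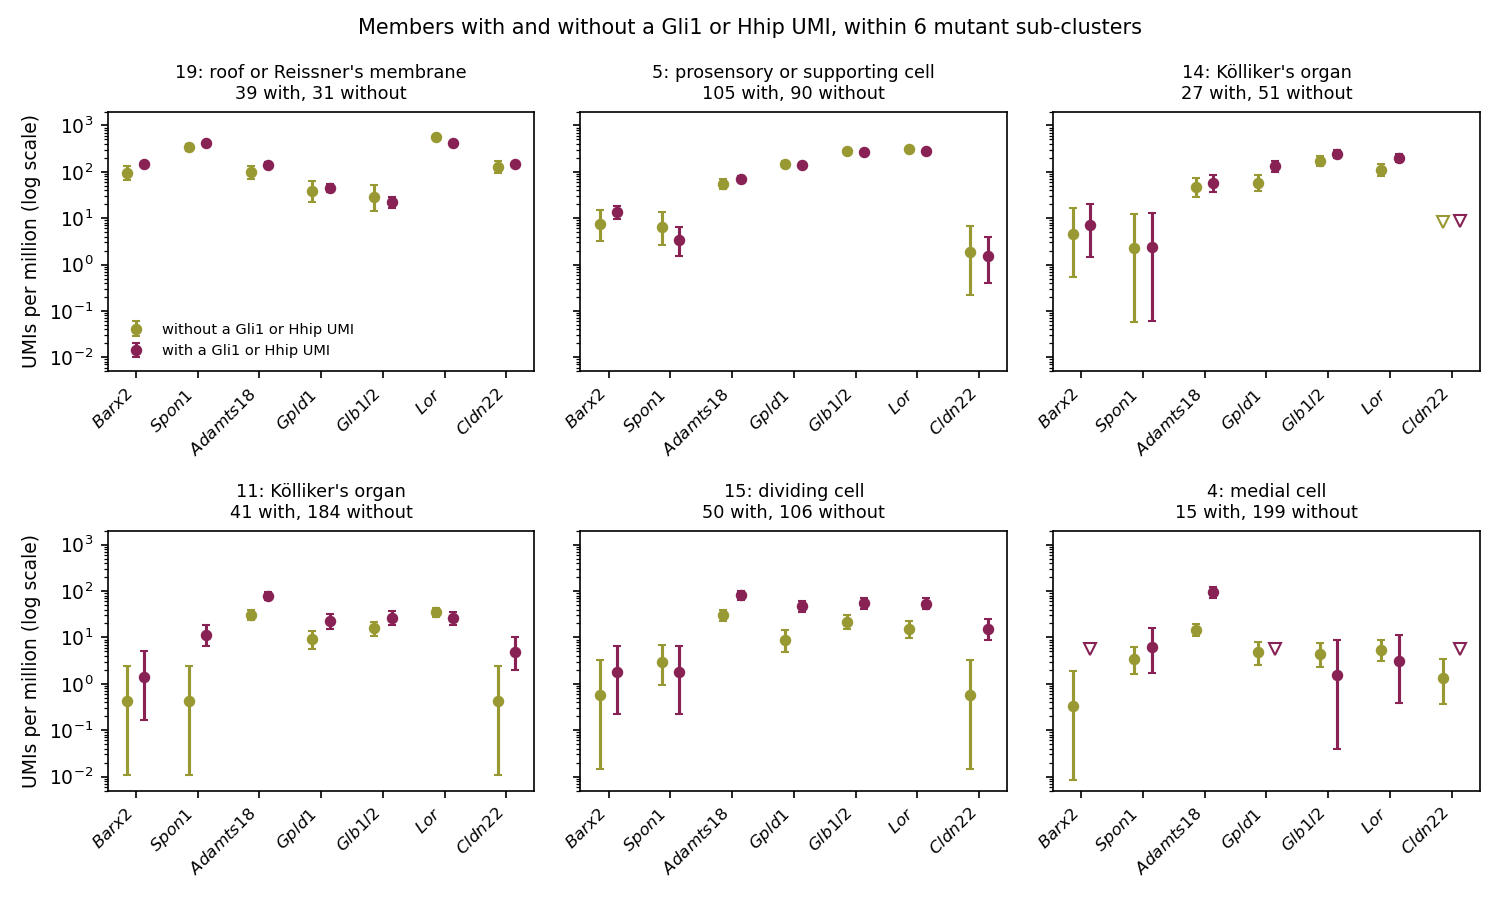
Level of the 7 genes (horizontal axes) in CPM (vertical axes, log scale) among mutant barcodes with and without a Gli1 or Hhip UMI in 6 sub-clusters, with exact 95% Poisson intervals; open triangles are upper bounds where 0 UMIs were counted. Points nearly coincide for Glb1l2, Gpld1 and Lor in the prosensory sub-cluster and are apart for Adamts18 in the medial one (94.9 and 14.6 CPM).

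Members of the same subtype were often found in the same barcode. Of 1370 mutant epithelial barcodes at 2000 UMIs, 872 had no member, 322 had 1, 135 had 2, 35 had 3, 5 had 4 and 1 had 5. Spon1 was found in 35.1% of the barcodes with Barx2, and Barx2 in 25.5% of those with Spon1. Glb1l2 was found in 36.0% of the barcodes with Gpld1, and Gpld1 in 22.4% of those with Glb1l2. No barcode had both Glb1l2 and Cldn22. Levels were also compared over the 11 mutant sub-clusters, which share 1 library and differ in depth. That of Gpld1 ran with Gli1 and Hhip (Pearson r of 0.90 and 0.92), and less closely those of Glb1l2 (0.79 and 0.73) and Adamts18 (0.68 and 0.73). For Lor r was 0.54 and 0.52, for Barx2 0.16 and 0.34, for Spon1 0.28 and 0.25 and for Cldn22 -0.07 and 0.10. The tie was not particular to the readouts. Gpld1 ran as closely with Hey2 (0.93) and Emx2 (0.91), Glb1l2 more closely with Fgf20 (0.88) and Hey2 (0.87), and Adamts18 more closely with Ptch1 (0.89). The genes whose pattern over these sub-clusters was most like that of 6 of the members, of 10802 genes compared, were Mme for Barx2 (r of 0.95), Igsf1 for Cldn22 (0.94), Eps8 for Glb1l2 (0.98), Emid1 for Gpld1 (0.96), Slc6a6 for Adamts18 (0.97) and Ppp2r2b for Lor (0.92).

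Other Hedgehog pathway genes were set beside the members. Of 13 listed, 11 had enough UMIs. Of these, 3 (Gli1, Hhip and Ptch1) were at least 2-fold higher in mutant epithelium, beside 2.15% of all genes, and 0 at least 2-fold lower. The median log2 ratio was 0.49 over the list and 0.31 without those 3, against 0.03 over all genes. With 1 CPM added, Gli3, a Gli factor that can act as a repressor, had the highest ratio of the rest (log2 of 0.81), at 34.2 and 60.6 CPM, and Cdon, a co-receptor, the lowest (-0.48), at 27.9 and 19.8 CPM.

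Relatives of the members were a mixed group. Of 12 listed, 10 were measured and 3 were at least 2-fold higher with 1 CPM added, beside 2.15% of all genes, with a median log2 ratio of 0.05. These 3 were Glb1l3 and Cldn24, given above, and Adamts16. Adamts16, another secreted metalloprotease, stood at 2.47 and 11.6 CPM. Spon2, a relative of Spon1, was lower in the mutant, at 1.63 and 0.394 CPM (25 and 8 UMIs), but without mixed barcodes it stood at 0.280 and 0.325 CPM. Glb1, the lysosomal beta-galactosidase, stood at 31.4 and 26.0 CPM, and the epithelial claudins Cldn3, Cldn6 and Cldn7 at 271 and 258, 188 and 211, and 333 and 327 CPM. Keratinocyte markers were looked at because of Lor. Of 9 listed, 5 had enough UMIs and 1 of them, the keratin Krt15, was at least 2-fold higher, at 2.73 and 7.63 CPM, beside 2.15% of all genes. Without mixed barcodes its log2 ratio was 0.71 and that call was lost. Krt5 had 1 wild-type and 17 mutant UMIs and Trp63, a transcription factor of basal epidermis, 0 and 9. Krt14 and Flg had 0 UMIs in both epithelia, and Krt10 stood at 34.9 and 36.8 CPM. The 9 markers together stood at 62.1 CPM in the 540 mutant barcodes with a Lor UMI and 60.0 CPM in the 1489 without.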

How the data were processed

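Single-cell 3′ RNA libraries of 2 pools of cochleae were compared, 1 per genotype. The deposited matrices hold UMI counts per gene and barcode, not normalized. The submitters' processing notes name mm10 and Cell Ranger 6.0.0. Per the file headers, Cell Ranger was at 6.0.0 for the wild type but at 5.0.1 for the mutant. The sample descriptions name kit versions 3.1 and 3.2 for the 2 libraries. The cell caller was not given in the sources used here.

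Barcodes with at least 1000 UMIs, 500 genes and at most 10% mitochondrial UMIs passed (6440 and 9373). Scrublet called 0 doublets in either library, so the top-scored 0.8% per 1000 barcodes (332 and 703) were removed. Both libraries were clustered together without batch correction (scanpy 1.11.5, igraph 0.11.9, 2000 variable genes, 30 components, 15 neighbours, Leiden resolution 1). Clusters were named by the mean of marker CPM over the highest cluster's, with at least 3 markers at 10 CPM, a rule settled after the data were seen. The definition of mixed barcodes was also set then. Epithelial barcodes were sub-clustered without markers, members or pathway genes.

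UMIs of a class were added up within each library and scaled to CPM, with exact Poisson intervals, and shares with exact Clopper-Pearson intervals (scipy 1.17.1). Ratios are log2((mutant CPM + 1)/(wild-type CPM + 1)) for genes with at least 10 UMIs. Barcodes were thinned to 2000 UMIs for shares. The code was tested on simulated data. Named neighbours in pattern were the genes with the highest Pearson correlation of log levels over mutant sub-clusters of at least 50 barcodes, and list genes were named at the highest and lowest ratio. The gene most like Spon1 is not reported here. Relatives and keratinocyte genes given as examples were chosen after their values were seen. The members and lists were chosen with earlier results of these data known. Alternatives changed the scaling, the CPM added, the barcode gate, depth, doublets, mixed barcodes, clustering and readout gene. Promoter letters are RefSeq's, matched by symbol for 4 of 7 members.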

Additional observations from a re-analysis of the deposited data

How the results depend on the processing

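The 2-fold count of members and the direction of all 7 epithelial ratios held under every alternative run, and the 4-fold count ran from 6 to 7. With 5 CPM added in place of 1, the members at least 8-fold higher numbered 2 in place of 6. No share over all genes is given at 8-fold, and the members were chosen by this contrast, so nothing is read from these counts. The log2 ratio for any member beside a Gli1 or Hhip UMI was 1.28 unthinned, 1.19 with Hhip alone and 0.32 weighted over subtypes, against 0.88. The Adamts18 value of -0.10 turned to 2.26 unthinned, 1.33 unthinned and weighted, 1.79 at 1000 UMIs, 1.12 at 4000 UMIs, 0.20 with Gli1 alone, 1.17 without mixed barcodes, 0.94 with no doublets removed and 0.77 as the median of 100 thinnings. Cldn22 turned to -1.02 at 4000 UMIs and -0.087 with Gli1 alone, and Spon1 to -1.50 without mixed barcodes. The cause was not tested. Limits added after the data were seen were the common floor without new clustering, the deep barcodes, the unnamed sub-clusters and the repeated thinnings. With 2 to 5 readout barcodes holding each of Barx2, Spon1, Adamts18 and Cldn22, their shares over the whole epithelium are imprecise. Leaving out a replicate was not possible. No paired analysis was possible because each genotype has 1 library.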
